A study of Rattus norvegicus with 4 samples.

Results

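The Klf and Sox genes encode the Krüppel-like factors and the SRY-related HMG-box factors, 2 families of transcription factors, and their transcripts were described here by the m6A peaks listed for them in cardiac fibroblasts (CFs). The members were all genes of the rat RefSeq table (assembly GRCr8) whose symbol is Klf or Sox followed by a number, which gave 17 Klf genes and 19 Sox genes, 36 in all. At least 1 peak was listed for 17 of them, 12 of the 17 Klf genes and 5 of the 19 Sox genes. In the whole series 8729 genes had a peak in either list, where RefSeq holds 23154 protein-coding genes. The 8729 include transcripts without a gene ID, each counted as a gene. m6A-seq sequences the RNA fragments pulled down by an antibody against N6-methyladenosine beside the input RNA, and peaks mark the parts of a transcript over-represented in the pull-down. The CFs were primary cells from hearts of healthy Sprague-Dawley rats no more than 3 days old, labelled WT for the cells given the empty plasmid (Vector) and FTO overexpression for those given the plasmid of FTO, the demethylase that removes m6A. Each group had 1 m6A-IP library and 1 input library, and the authors deposited 1 peak list per group, so no difference given here has a replicate check and no test was made.

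The Klf proteins bind GC-rich promoter elements through zinc fingers at the carboxyl end, and their amino-terminal parts recruit acetyltransferases or the corepressors CtBP and Sin3A. The Sox proteins bind and bend DNA with an HMG box and are sorted by letter into groups with related boxes. Several members are short-lived proteins from short-lived mRNAs that respond to growth factors, flow or injury, Klf15 is known in the heart as a restraint on hypertrophy and fibrosis, and Sox9 is the master factor of cartilage that also acts in scar-forming fibroblasts.

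In all, 21249 Vector peaks and 17796 FTO peaks were listed. Fto itself had 3 and 9 listed peaks, and peaks of the plasmid transcript were not separated from those of the endogenous one. The sequencing depth is unknown. Of 12 fibroblast markers, 8 had a peak in at least 1 list, while Vim, Dcn, Col1a1 and Col3a1 had none. Pdgfra had 7 Vector and 6 FTO peaks, Fn1 had 3 and 1, Thy1 2 and 1 and Postn 1 and 0. Lum had 1 and 2, Ddr2 0 and 1, and Pdgfrb and Tcf21 had 1 in each list. A peak is no measure of the transcript level, and peaks were also listed for 7 of 10 cardiomyocyte markers, 5 of 6 macrophage markers, 4 of 6 smooth muscle and pericyte markers, 2 of 8 endothelial markers and 1 of 5 glial markers. The summed peaks of the fibroblast markers numbered 16 with Vector and 13 with FTO, those of the cardiomyocyte markers 23 and 27. The macrophage markers had 17 and 9 and the smooth muscle and pericyte markers 19 and 18. The endothelial markers had 1 and 2, and the glial markers 1 and 0. Fewer FTO peaks were found for 4 fibroblast, 2 cardiomyocyte and 4 macrophage markers, and more for 2, 3 and 1. For smooth muscle and pericyte, endothelial and glial markers, 2, 1 and 1 had fewer and 2, 1 and 0 had more. Over all genes 41.4% had fewer and 21.2% had more. Among the cardiomyocyte markers, Tnnt2 had 4 Vector and 7 FTO peaks, Ryr2 had 2 and 5 and Nkx2-5 had 0 and 2. Myh7 had 8 and 5, Actn2 1 and 0, Myh6 7 and 7 and Tnni3 1 and 1. Nppa, Ttn and Pln were at 0 in both lists. Of the macrophage markers, Ptprc had 10 and 7, Cd163 had 4 and 0, Csf1r 2 and 1 and Mrc1 1 and 0. Cd68 went the other way, with 0 and 1, and Adgre1 was at 0. Pecam1, Cdh5, Kdr, Tie1, Vwf and Emcn of the endothelial markers were at 0, Tek had 0 and 2 and Erg 1 and 0. Among the smooth muscle and pericyte markers, Myh11 had 17 and 15, Abcc9 2 and 1, and Des and Kcnj8 0 and 1 each. Rgs5 and Cnn1 were at 0. Erbb3 was the listed glial marker, with 1 and 0. The part of other cell types in the peaks described here was not tested.

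Klf transcripts carried 17 listed Vector peaks and 21 listed FTO peaks, and Sox transcripts carried 8 and 9. Both families thus had slightly more listed peaks in the FTO group, by 4 and by 1, whereas for the whole lists FTO minus Vector came to -3453 peaks. Among the 12 Klf genes, 5 had more FTO peaks, 5 had as many and 2 had fewer. Among the 5 Sox genes, 2 had more FTO peaks, 2 had as many and 1 had fewer. Over all 8729 genes, 41.4% had fewer FTO peaks and 21.2% had more. The Klf excess was no longer there without short peaks. When peaks under 200 bp were left out, the Klf genes had 14 peaks in each list, with 3 genes having fewer and 3 having more, beside 27.5% and 18.6% of the genes that kept a peak of that length. The Sox genes then had 7 Vector peaks and 8 FTO peaks.

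**Figure D1:**
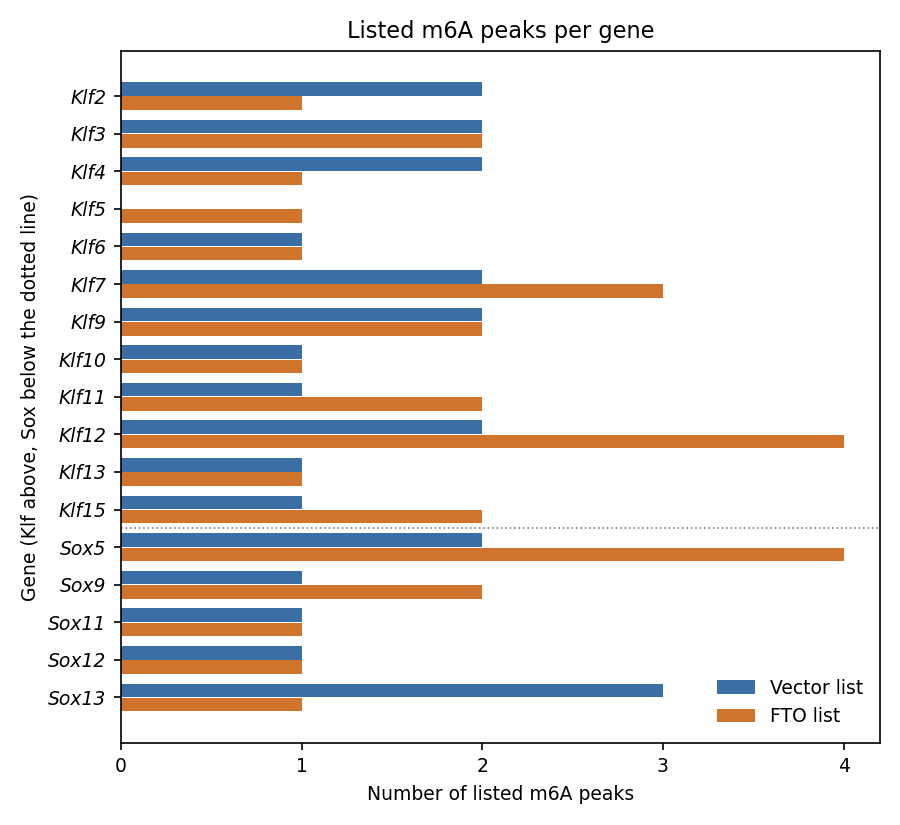
Number of listed m6A peaks (horizontal axis) for each Klf and Sox gene with a peak in either list (vertical axis), with a blue bar for the Vector list and an orange bar for the FTO list. Klf12 and Sox5 go from 2 to 4 peaks, Sox13 goes from 3 to 1, and Klf5 has a bar in the FTO list alone.

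None of the 17 listed members was found in the Vector group only, while 16.4% of all 8729 genes were. For Klf2 and Klf6 this rested on a single short FTO peak, of 176 and 127 bp. With peaks under 200 bp left out, each of them had 1 Vector peak and 0 FTO peaks. Klf5 was the member listed in the FTO group only, a pattern shown by 9.57% of all genes. The members had few peaks each, a mean of 1.55 per listed Klf gene and 1.6 per listed Sox gene in the Vector group, against 2.69 over all genes. The number of Vector peaks limits how many can be missing from the other list, so genes with like numbers were set beside the members. Of the 6043 genes with 1 to 3 Vector peaks, 39.8% had fewer FTO peaks and 12.9% had more. Of the 11 Klf genes in that range 2 had fewer and 4 had more, and of the 5 Sox genes 1 had fewer and 2 had more.

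The peaks of both families were long. The median length was 808 bp for the Klf peaks and 973.5 bp for the Sox peaks with Vector, against 203 bp over the whole list. With FTO the medians were 630 bp and 783 bp, against 228 bp. Lengths of at least 1000 bp were found for 6 of 17 Klf peaks and 4 of 8 Sox peaks in the Vector group, or 35.3% and 50.0%, where 14.2% of all Vector peaks were as long. In the FTO group it was 8 of 21 and 4 of 9, or 38.1% and 44.4%, where 16.7% of all FTO peaks were as long. Both medians were thus lower with FTO, while that of the whole list was higher. Of the Klf peaks, 3 of 17 were under 200 bp with Vector and 7 of 21 with FTO, and of the Sox peaks 1 in each group. The order of the Klf medians turned when short peaks were left out, to 808 bp with Vector and 865 bp with FTO for peaks of 100 bp and over and to 956.5 bp and 1016 bp for those of 200 bp and over, where the Sox medians were 1020 bp and 901.5 bp.

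**Figure D2:**
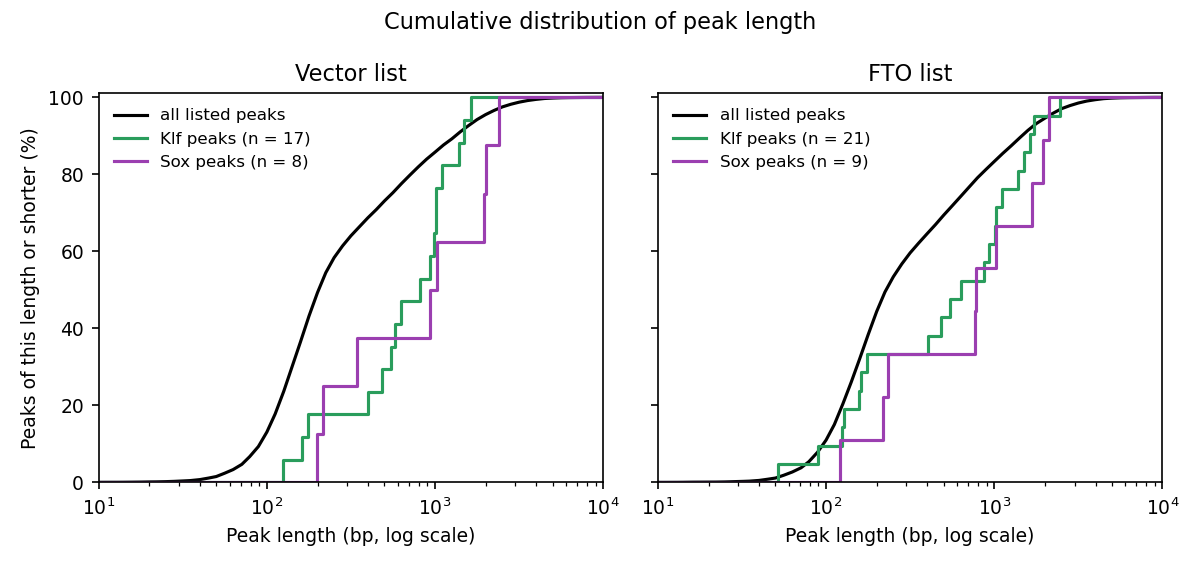
Cumulative share of peaks (vertical axis, percent) at or under a given length (horizontal axis, bp, log scale) in the Vector list (left) and the FTO list (right), for all listed peaks (black), Klf peaks (green) and Sox peaks (purple). Both family curves lie mostly to the right of the black one, and the lower end of the Klf curve moves left in the FTO list, where 7 peaks are under 200 bp.

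Equal lengths in both lists were more frequent among the Klf peaks than among the Sox peaks, though the error of these shares is wide. A Vector peak was called matched when the FTO list held a peak of exactly its length on that gene, 1 to 1. Of the Klf Vector peaks 13 of 17 were matched, which is 76.5% (95% Wilson interval 52.7% to 90.4%), and of the Sox Vector peaks 2 of 8, which is 25% (7.15% to 59.1%). Over the whole Vector list 57.3% were matched. The intervals of the families overlap and cover counting error only, and peaks of 1 gene are not independent. Of the FTO peaks, 13 of 21 Klf peaks (61.9%) and 2 of 9 Sox peaks (22.2%) were matched, against 68.4% of the whole list. With any peak on that gene taken as a match, which compares peak numbers only, the Vector shares were 88.2% for Klf and 75% for Sox and the FTO shares 71.4% and 66.7%.

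The summed length of a gene's peaks was also compared. With Vector its median per listed gene was 984 bp for Klf and 2010 bp for Sox, against 966.5 bp over all genes. With FTO it was 1086.5 bp and 1669 bp, against 981 bp. The Klf medians of the sum were thus near those of all genes, though the single peaks were longer. Among genes with peaks in both lists, a sum at least 1.5-fold lower in the FTO group was found for 3 of 11 Klf genes (Klf2, Klf4 and Klf6) and 0 of 5 Sox genes, and for 14.7% of all 6462 genes. A sum at least 1.5-fold higher was found for 2 Klf genes (Klf7 and Klf11) and 0 Sox genes, and for 9.01% of all genes. The other 6 Klf genes lay between 1-fold and 1.13-fold of their Vector sum, and the Sox genes between 0.786-fold and 1.21-fold. With 5 Sox genes, 0 is not far from these background shares and does not separate the Sox genes from the rest.

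**Figure D3:**
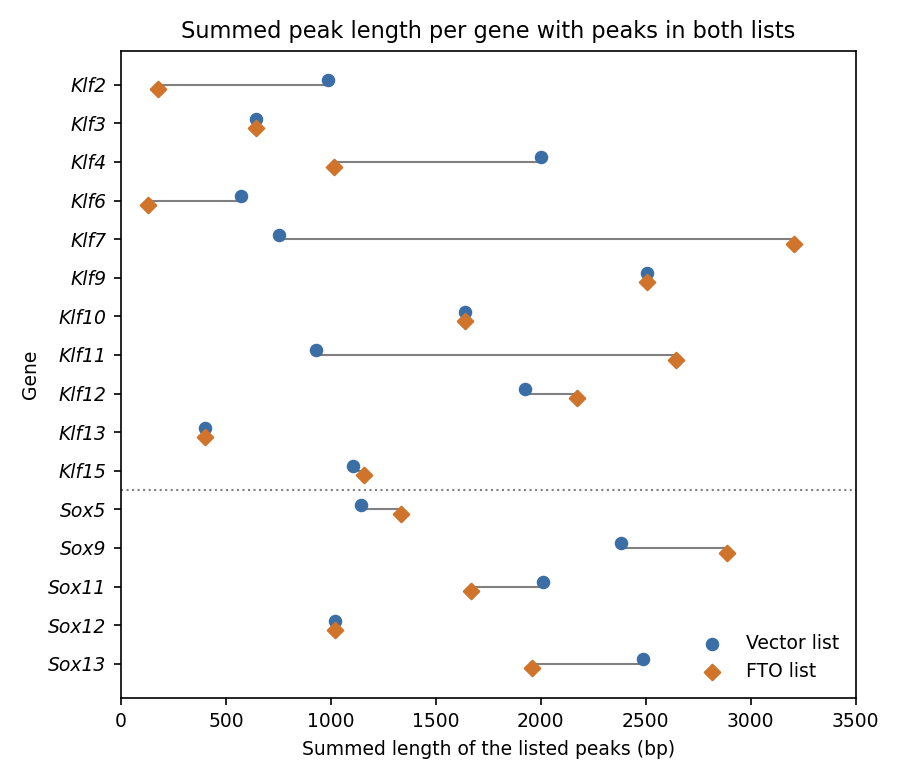
Summed length of the listed peaks (horizontal axis, bp) for each member with peaks in both lists (vertical axis), with blue circles for the Vector list, orange diamonds for the FTO list and a grey line joining them. Klf7 and Klf11 have the longest lines, with higher sums in the FTO list, and Klf2, Klf4 and Klf6 have lower ones by 808, 982 and 447 bp, while Sox9 is higher by 502 bp and Sox13 lower by 531 bp.

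The Klf genes that recruit acetyltransferases, mainly activators, had 7 peaks in each list, yet all 5 listed genes differed between the lists. Klf2, a flow-induced factor of endothelial and immune cells (NCBI gene ID 306330), had Vector peaks of 176 and 808 bp and an FTO peak of 176 bp. Klf4, one of the reprogramming factors and a regulator of smooth muscle identity (114505), had Vector peaks of 1017 and 982 bp and an FTO peak of 1017 bp. Klf6, an injury-induced factor (58954), had a Vector peak of 574 bp and an FTO peak of 127 bp. In these 3 genes the sum was 5.59-fold, 1.97-fold and 4.52-fold higher in the Vector group.

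Klf5 and Klf7 of the same subgroup went the other way. Klf5, known for its part in smooth muscle and fibroblast activation (84410), had no Vector peak and an FTO peak of 865 bp. Klf7, a factor of neuronal development (363243), had peaks of 124 and 630 bp in both groups and a further FTO peak of 2453 bp, the longest of any member in either list. Its sum was 754 bp with Vector and 3207 bp with FTO, 4.25-fold higher. Klf1, the erythroid founder of the family, had no listed peak.

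The CtBP-binding repressors had 4 Vector peaks and 6 FTO peaks. Klf3 (114845) had peaks of 161 and 484 bp in both groups. Klf12 (306110) had 1379 and 547 bp in both groups and 2 further peaks of 158 and 90 bp in the FTO group, which made up 248 of its 2174 bp. Klf8 had no listed peak.

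The Sin3A-binding repressors had 5 Vector peaks and 6 FTO peaks and were nearly the same in both lists. Klf9, a target of glucocorticoid and thyroid hormone (117560), had peaks of 1015 and 1493 bp in both groups. Klf13 (499171) had 401 bp in both. Klf10, the TGF-beta-inducible early gene (81813), had 1639 bp with Vector and 1641 bp with FTO, a difference of 2 bp. Its close relative Klf11 (313994) was the exception, with 931 bp in both groups and a second FTO peak of 1712 bp, so that the sum was 2.84-fold higher. Klf14 and Klf16 had no listed peak.

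Klf15 (85497) stands outside these subgroups. It had a peak of 1104 bp in both groups and a second of 52 bp in the FTO group, the shortest of any member. Klf17 had no listed peak.

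**Figure D4:**
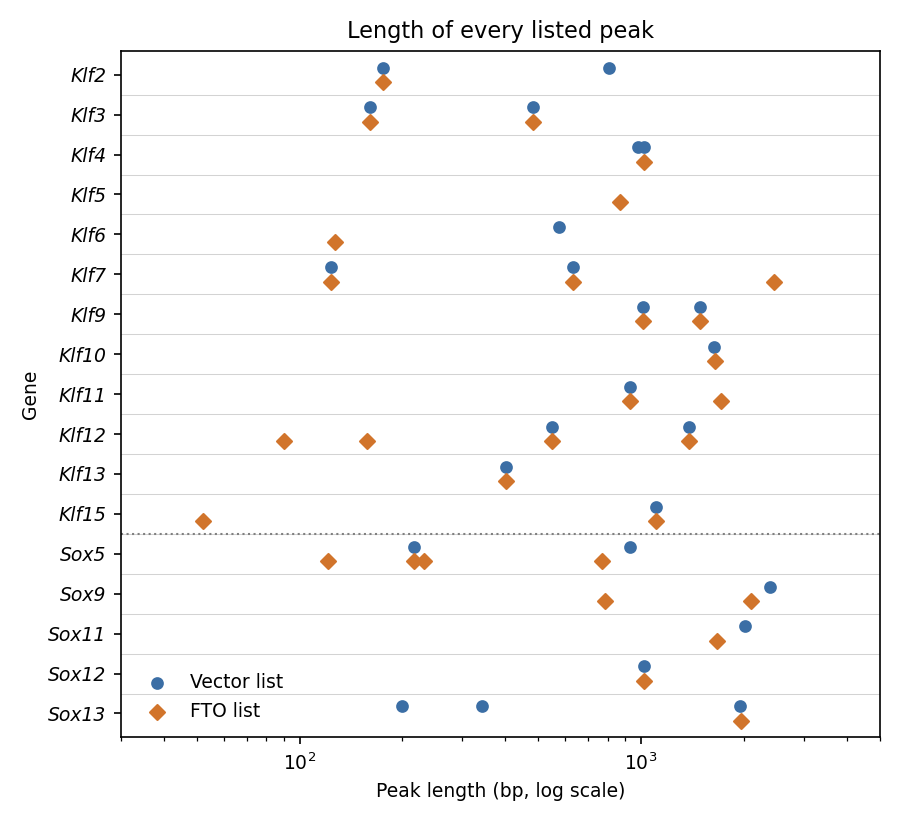
Length of each listed peak (horizontal axis, bp, log scale) for every member with a peak (vertical axis), as blue circles for the Vector list and orange diamonds for the FTO list. Most Klf circles have a diamond at the same length, with added diamonds for Klf7 at 2453 bp and Klf11 at 1712 bp. The longest peak of Sox5, of Sox9 and of Sox11 is shorter in the FTO list than in the Vector list.

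Listed Sox genes came from the C, D and E groups alone. Sox9 (140586), of the E group, had a Vector peak of 2383 bp and FTO peaks of 783 and 2102 bp. The longest FTO peak was 281 bp shorter than the Vector peak, and the FTO sum was 502 bp longer. Without positions, it cannot be told whether the longest peaks are the same peak. Sox8 and Sox10 of the same group had no listed peak, and Sox10 marks glial cells. The D group, whose proteins have no activation domain of their own and in the case of Sox5 assist Sox9 in cartilage, had 5 peaks in each list. Sox5 (140587) had Vector peaks of 927 and 217 bp and FTO peaks of 766, 217, 121 and 232 bp. The peaks of 121 and 232 bp were assigned to a transcript of Sox5 that had no Vector peak. Sox13 (289026) had Vector peaks of 343, 199 and 1945 bp and an FTO peak of 1956 bp, and the peaks of 343 and 199 bp were assigned to another transcript than the long one. Sox6 had no listed peak.

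The C group genes have no introns, and 2 of the 3 were listed with 1 peak in each group. Sox11 (84046), a factor of progenitor cells, had 2010 bp with Vector and 1669 bp with FTO. Sox12 (689988) had 1020 bp in both. Sox4 had no listed peak. The other members without a peak were the B group (Sox1, Sox2, Sox3, Sox14 and Sox21), which acts in stem cells and the nervous system, the F group (Sox7, Sox17 and Sox18), which acts in endothelial cells, and Sox15 and Sox30. The 248 Vector peaks and 213 FTO peaks that carry no gene ID could not be assigned to any member. In the counts over all genes, each of their transcripts was counted as a gene.

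Genes with a single peak in each list give a direct background for these lengths. There were 1873 such genes, the length was equal in 61.7% of them, and it was within 10% in 79.7%. Among the members Klf13 and Sox12 had equal lengths, Klf10 differed by 0.122%, Sox11 by 17.0% and Klf6 by 77.9%. For members with several peaks, the longest peak of each list was compared, and these need not be the same peak. They differed by 0.562% for Sox13, 11.8% for Sox9 and 17.4% for Sox5. For Klf11, Klf7 and Klf2 they differed by 45.6%, 74.3% and 78.2%. For Klf3, Klf4, Klf9, Klf12 and Klf15 they were equal.

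The numbers in the peak names were used to see which peaks of a gene followed each other. Among 2644 genes with at least 2 matched peaks of unique length, the numbers ran in the same order in both lists in 99.8%. The 2453 bp peak of Klf7 came directly before its 124 and 630 bp peaks, and the 1712 bp peak of Klf11 directly after its 931 bp peak, with consecutive numbers. The 783 and 2102 bp peaks of Sox9 also had consecutive numbers, between peaks of Kcnj2 and Slc39a11. The 121 and 232 bp peaks of Sox5 stood further off, with 13 unlisted numbers among its FTO peaks. Not every number is listed. In the Vector list 11 numbers before Klf7, 4 after Klf11 and 48 after Sox5 had no listed peak. Another 16 numbers were unlisted there between Bora and Klf12, the neighbours between which Klf5 was listed in the FTO group. In the FTO list 2 numbers after the Klf2 peak and 7 after the Klf4 peak were unlisted. The Klf6 peak there had 18 unlisted numbers before it and 17 after it. A call that was made but not listed cannot be told apart from no call at these places.

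Related genes were counted from lists by name, to be read beside the 41.4% of all genes with fewer FTO peaks and the 21.2% with more. The Sp factors, the nearest relatives of the Klf proteins, had 10 peaks in each list. Of the 9 genes 4 were listed, with more FTO peaks for Sp2 (2 and 3), fewer for Sp4 (3 and 2) and as many for Sp1 and Sp3. Their median length was also long, 642.5 bp with Vector and 1011.5 bp with FTO. The other genes with an HMG box, 19 of 24 of them listed, had 67 Vector peaks and 54 FTO peaks. Fewer FTO peaks were found for 9, as many for 5 and more for 5, which is not far from those background shares. Here Tcf7l2, a partner of beta-catenin, had 5 Vector peaks and 1 FTO peak, Tox4 had 4 and 0, Pbrm1, a subunit of a chromatin remodeller, had 8 and 5, and Hmgxb4 had 4 and 2. Their median length was 160 bp with Vector and 189.5 bp with FTO, below that of the Sox genes.

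Among 16 cofactors and ubiquitin ligases of Klf and Sox proteins, 13 were listed, with 43 Vector peaks and 44 FTO peaks. The FTO list had fewer peaks for 4 of them and more for 4, beside 41.4% and 21.2% of all genes. Only the deubiquitinase Usp9x differed by 2, with 4 and 6. Of 14 cartilage matrix targets of Sox9, 6 were listed, with 35 Vector peaks and 9 FTO peaks. Col11a1 had 18 and 6, Acan had 11 and 0 and Matn4 had 2 and 0, Col9a3 had 1 and 0, and Col9a2 and Fmod had as many in both. These targets and their direction were known from earlier results when the list was written. Sox9 itself had 1 Vector peak and 2 FTO peaks. No relation between Sox9 and the targets can be read from this, since the direction of the list was known beforehand. Of the list's difference of -26 peaks, Col11a1 had -12 and Acan had -11. Transcript levels were not measured here.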

How the data were processed

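m6A-seq was analysed in 4 libraries of neonatal rat CFs, 1 m6A-IP and 1 input for Vector and the same for FTO, mapped to the groups from their titles. The authors deposited 1 list per group, whose values are peak lengths in bp, not normalized, and each length is given beside the name of the peak, its Ensembl transcript and its NCBI gene. The submitters' processing notes name cutadapt 1.9.3, HISAT2 2.0.4 and the build rn6. The prefix MACS in the peak names points to the peak caller. Its version, its threshold and the annotation release are not given in the sources used here. Positions, heights and library sizes were not used, so a deeper library, which allows more calls, could alter any peak number.

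Symbols were taken from RefSeq (GRCr8) by gene ID, which matched 7489 of 7723 Vector IDs and 6920 of 7145 FTO IDs, and no coordinates were used. All members were named. From the related lists, genes whose numbers differed by 2 or more were named, at most 5 per list, and Sp1 to Sp4, Col9a2, Col9a3 and Fmod were named after their values were seen. Members and lists were chosen with earlier results of these data known. Alternatives were minimum lengths of 100 and 200 bp, equal lengths counted once, other matching rules, scaled FTO numbers and older symbols. Counting and matching were tested on simulated lists. Changed lengths in these lay above all real ones, so coincident matches of changed peaks were not tested. Python 3.11.15, numpy 2.4.6, pandas 2.3.3, scipy 1.17.1 and matplotlib 3.10.9 were used.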

Additional observations from a re-analysis of the deposited data

How the results depend on the processing

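Of 114 values under the alternatives, 98 stayed within 1.5 times the count or length or within the 95% interval of the share. Another 14 moved further and 2 reversed, and the cause was not tested unless the alternative itself shows it. The 98 include values that could not change. No member had equal lengths within a list to count once. Scaling left the Vector counts as they were, and older symbols added no Klf gene. The median Klf length was lower with FTO (FTO minus Vector, -178 bp), but higher by 57 bp with peaks of at least 100 bp and by 59.5 bp with peaks of at least 200 bp, and the difference in the Sox median of -190.5 bp was -118.5 bp with the latter. The Klf excess of 4 FTO peaks was 2 with peaks of at least 100 bp and 0 with peaks of at least 200 bp, and 8.07 after scaling the FTO numbers by 1.194 to the size of the Vector list, with which the Sox excess was 2.75. Such scaling leaves no ties, so 0 Klf genes and 0 Sox genes then had as many FTO peaks, and 10 Klf genes and 4 Sox genes had more. When peaks under 200 bp were left out, 3 Klf genes had more FTO peaks, the median Klf length in the FTO group was 1016 bp, and 1 Klf gene had a sum at least 1.5-fold lower beside 2 with a higher one, because Klf2 and Klf6 then had no FTO peak and left the comparison. Taking any peak on that gene as a match gave Sox shares of 75% with Vector and 66.7% with FTO. Older symbols added Adam19 to the Sox genes, with 3 peaks in each list. No paired analysis was possible because there is a single IP and input pair per group, and for the same reason replicates could not be left out.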
